A study of Dorcoceras hygrometricum with 9 samples.

Results

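The late drying step is the passage of Boea hygrometrica leaves, a species the labels call Dorcoceras hygrometricum, from 70% to 10% relative water content (RWC, the water in a leaf relative to the same leaf fully hydrated). It was studied in 6 of the series' 9 RNA-sequencing libraries, 3 from leaves of potted plants dried to 10% RWC and 3 from leaves dried to 70% RWC, chosen by their titles. The other 3 libraries, titled HD and taken as the hydrated state, show what had already happened between hydrated leaves and 70% RWC, called the early step here. All leaves were from plants grown in pots, with no other treatment named, and the design text calls the 3 libraries of a state biological replicates. Neither plant age nor the number of plants behind a library is given in the sources used here, so the p-values measure the spread between these libraries, which may be technical.

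Boea hygrometrica is a resurrection plant, whose leaves lose nearly all their water, stay alive in the dry state and take up their functions again when watered. In such plants moderate water loss is known to bring hydrophilic protective proteins and sugars and to shut down photosynthesis, and the last stretch of drying ends in a glass-like cytoplasm in which metabolism stops. In some desiccation-tolerant plants, transcripts kept in the dry tissue are known to be a store from which protein synthesis can start on rewatering.

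Of 14585 genes tested, 11194 (76.8%) passed edgeR's quasi-likelihood test at an adjusted p below 0.05 between 10% and 70% RWC, 5415 higher (37.1%) and 5779 lower (39.6%) at 10% RWC. Scaled by total counts in place of TMM, the larger side turned, with 5755 higher and 5438 lower. Without 70% RWC replicate 1 the calls were 4849 higher and 6120 lower. Changes of at least 2-fold were called for 2712 higher genes (18.6%) and 3643 lower genes (25%). The early step had 10284 genes called (70.5%), and most of the genes called at least 2-fold in the late step were among them. Of the 2712 higher genes, 853 had been called higher and 807 lower at 70% RWC against hydrated leaves, and 1052 were not called in the early step. Of the 3643 lower genes, 1282 had been called higher, 1729 lower and 632 neither.

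Genes that changed in the late step alone, called late-step genes below, were those called at least 2-fold between 10% and 70% RWC, not called in the early step, with an early log2 fold change between -0.5 and 0.5, and with a late change called as different from the early one in the same direction. There were 1285 of them (8.81% of the genes tested), 777 higher (5.33%) and 508 lower (3.48%) at 10% RWC. Their early values are set by that rule and are given as a description, and an early change within these limits is not an absence of change. The late and early comparisons share the 70% RWC libraries. In none of the 1285 genes did the libraries of 10% and 70% RWC overlap, so that this separation is a property of the whole set and says nothing further of the genes named. Which genes belong depends on the fit. In 17 other fits with all states (other scalings, filters, tool, block or libraries), 547 of the 1285 were late-step genes each time and 194 in fewer than 12, which is given beside those named below. At the edge of the rule, a 3-5 exonuclease gene (Bhs4041_013V1.1) with a late log2 fold change of -1.00002 was taken and a cyclic nucleotide-gated ion channel gene (Bhs1501_007V1.1) with 0.9996 was not. A protein gamma response 1-like gene (Bhs1073_018V1.1) with an early log2 fold change of -0.497 was taken (9 of 17 other fits), and a Rubisco-binding chaperonin gene (Bhs19587_002V1.1) with -0.5001 was not.

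**Figure D1:**
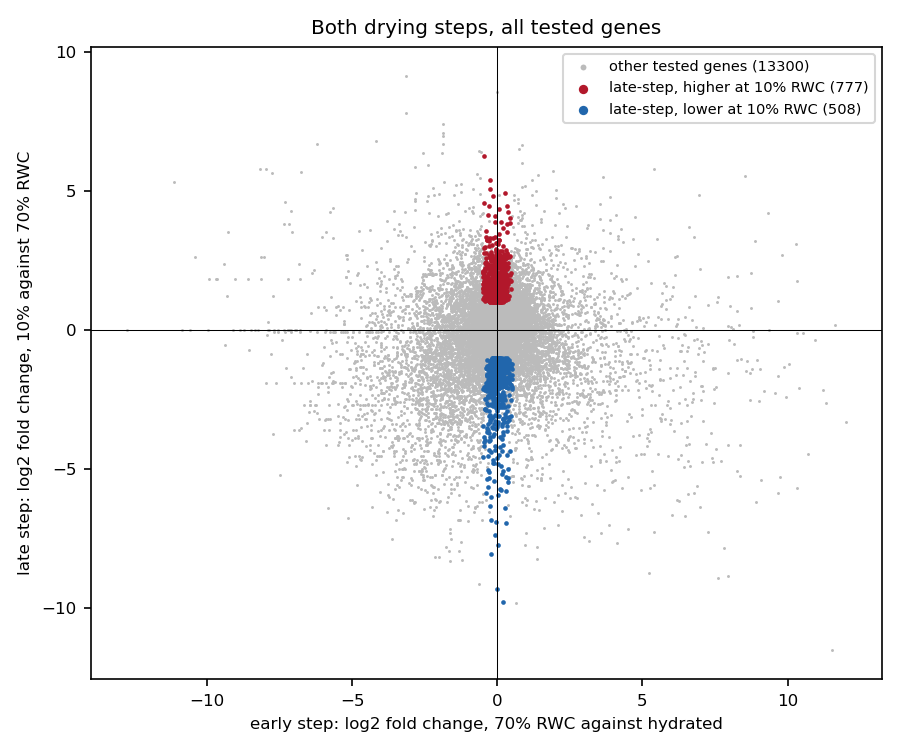
Each point is 1 of the 14585 tested genes, with the log2 fold change of the early step (70% RWC against hydrated) on the x axis and that of the late step (10% against 70% RWC) on the y axis. The 777 late-step genes higher at 10% RWC (red) and the 508 lower (blue) form a vertical band around an early change of 0, as their rule requires.

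The 9 libraries held 6654601 to 7423965 uniquely aligned reads in the tested genes. Within a state, replicates 2 and 3 were close to what counting noise alone would give, at a chi-square of 1.26 to 1.36 a gene, and replicate 1 stood apart from both, at 4.67 to 8.05. Without replicate 1 of every state, 11363 genes were called in the late step, with 664 higher and 464 lower late-step genes. With replicates 2 and 3 summed into 1 sample a state, the numbers were 10736, 887 and 572. Values below are CPM, read counts scaled to library size, per library in the order of replicates 1, 2 and 3, or means ± SD over the 3 libraries of a state. Log2 fold changes are ± an approximate SE, the size of the change divided by the square root of its quasi-likelihood F statistic. It is not the standard error of the fitted coefficient, and for genes with few reads in a state it can be smaller than counting error alone. A CPM value is a share of a library, so less RNA per cell and fewer cells of a type cannot be told apart. Names are those of the best database match in the deposited files.

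Among described genes with at least 20 CPM, the deepest late-step decreases included genes for proteins of the cell wall and its surroundings. A xyloglucan endotransglycosylase gene (Bhs2041_015V1.1, scaffold 2041, positions 107279 to 108303, minus strand), whose enzyme cuts and rejoins the xyloglucan chains that tie cellulose fibres together, had 2.66, 1.26 and 0.27 CPM at 10% RWC, against 911, 905 and 941 CPM at 70% RWC. For Bhs2041_015V1.1 the log2 fold change was -9.33 ± 0.23, edgeR adjusted p = 6.43e-12. In hydrated leaves it had 858, 939 and 958 CPM. The hydrated and 70% RWC libraries lay close together, and the 10% RWC libraries lay far below both. No described late-step gene with at least 20 CPM had a larger fold. A germin-like protein gene (Bhs7066_001V1.1), of a family of extracellular proteins with oxidase activities, had 1.33, 1.4 and 1.49 CPM at 10% RWC, against 246, 327 and 346 CPM at 70% RWC. For Bhs7066_001V1.1 the log2 fold change was -7.75 ± 0.31, edgeR adjusted p = 1.85e-08. A fasciclin-like arabinogalactan protein gene (Bhs700_020V1.1), a wall glycoprotein, had 0.266, 1.12 and 1.49 CPM at 10% RWC, against 21.7, 28.8 and 32.7 CPM at 70% RWC (log2 fold change -4.84). An extensin-like gene (Bhs71_004V1.1, scaffold 71, positions 265070 to 266269, plus strand), for a structural wall protein, was the most abundant late-step gene at 70% RWC, with 817, 1116 and 1048 CPM at 10% RWC, against 4631, 7007 and 7036 CPM at 70% RWC. For Bhs71_004V1.1 the log2 fold change was -2.65 ± 0.20, edgeR adjusted p = 2.70e-06. It still had 993 ± 157 CPM in the dry leaf, far above the other wall genes.

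Genes of other kinds were also among the 12 largest decreases. The gene matching WRKY transcription factor 30 (Bhs45_140V1.1, scaffold 45, positions 939331 to 941180, minus strand), a DNA-binding regulator of stress and pathogen responses, had 1.33, 1.26 and 0.675 CPM at 10% RWC, against 125, 137 and 136 CPM at 70% RWC. For Bhs45_140V1.1 the log2 fold change was -6.91 ± 0.13, edgeR adjusted p = 6.52e-17. Hydrated leaves had 140.0, 139.9 and 131 CPM, so no hydrated or 70% RWC library came near the dry ones. Genes matching PBS1, a kinase guarded by an immune receptor in Arabidopsis, were 3 of the 12 largest decreases. Bhs30_024V1.1 had 1.95 ± 0.393 CPM at 10% RWC and 54.7 ± 2.59 CPM at 70% RWC, Bhs516_002V1.1 had 1.19 ± 0.791 CPM at 10% RWC and 27 ± 0.992 CPM at 70% RWC and Bhs252_032V1.1 had 2.23 ± 0.263 CPM at 10% RWC and 30.1 ± 1.77 CPM at 70% RWC (log2 fold changes -4.797, -4.495 and -3.75). Because only uniquely aligned reads were counted, values of members of multigene families such as these are uncertain where copies are nearly identical. A subtilisin-like protease gene (Bhs6385_002V1.1) fell as well, with 11.7, 11.5 and 9.59 CPM at 10% RWC, against 104, 130.3 and 133 CPM at 70% RWC (log2 fold change -3.48), and it was a late-step gene in 10 of 17 other fits.

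The others of the 12 largest decreases included enzymes of metabolism. A 10-hydroxygeraniol oxidoreductase gene (Bhs1728_018V1.1), named for an enzyme of iridoid synthesis, had 3.09 ± 0.29 CPM at 10% RWC and 63.1 ± 5.39 CPM at 70% RWC (log2 fold change -4.35). A gene for pyrophosphate-dependent phosphofructokinase (Bhs615_031V1.1), which phosphorylates fructose 6-phosphate with pyrophosphate in place of ATP, had 3.2, 3.93 and 4.32 CPM at 10% RWC, against 54.4, 57.2 and 54.2 CPM at 70% RWC. For Bhs615_031V1.1 the log2 fold change was -3.85 ± 0.13, edgeR adjusted p = 3.95e-14. A peroxisomal coenzyme A synthetase-like gene (Bhs155_034V1.1) had 33.7, 40.1 and 38.8 CPM at 10% RWC, against 397, 518 and 532 CPM at 70% RWC (log2 fold change -3.68). A gene described only as AER (Bhs3283_026V1.1) had 3.64 ± 0.85 CPM at 10% RWC and 52.1 ± 2.72 CPM at 70% RWC, and it was a late-step gene in 8 of 17 other fits. Below the level of 20 CPM, chosen after its values were seen, a carotenoid cleavage dioxygenase 4 gene (Bhs4_105V1.1), whose enzyme breaks carotenoids down, had 0 reads in all 3 libraries at 10% RWC and 12.1, 16.7 and 17.1 CPM in those at 70% RWC, at least 112-fold lower taking 3 reads in the whole group as the floor. It was 1 of 5 late-step genes with no read at 10% RWC.

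**Figure D2:**
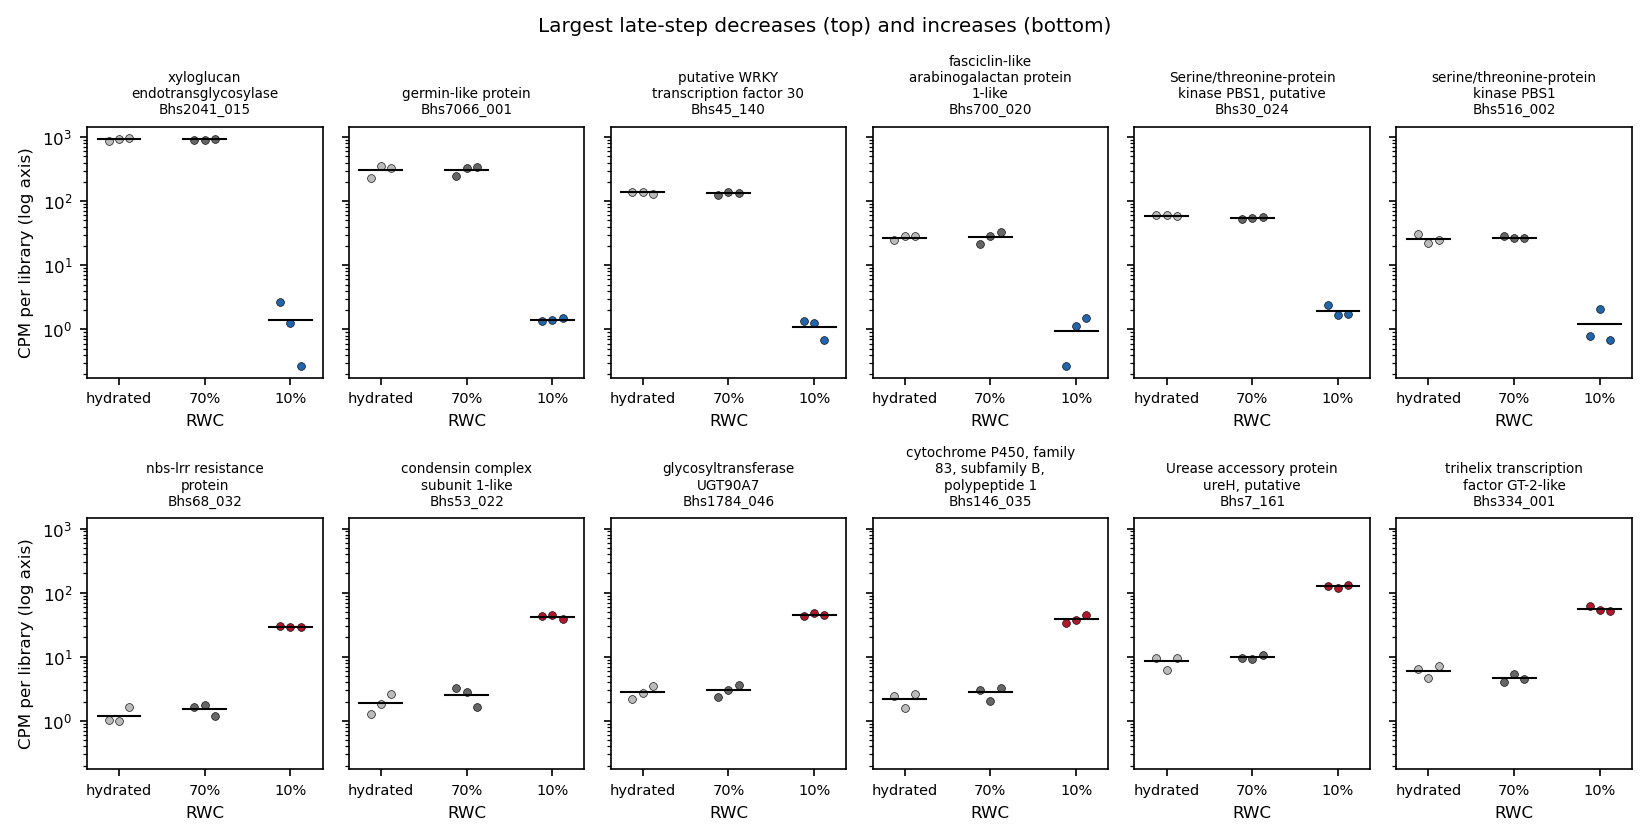
CPM per library on a log axis in hydrated leaves, at 70% RWC and at 10% RWC for the 6 largest late-step decreases (top) and increases (bottom) among described genes with at least 20 CPM, where points are libraries and bars are means of 3. The hydrated and 70% RWC libraries lie at about the same height, and the 10% RWC libraries lie apart from both, as for the xyloglucan endotransglycosylase gene with 0.270 to 2.66 CPM at 10% RWC against 905 to 941 CPM at 70% RWC.

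The largest late-step increases were smaller in fold than the largest decreases and came mostly from genes with few reads at 70% RWC. An NBS-LRR resistance protein gene (Bhs68_032V1.1, scaffold 68, positions 323868 to 331517, minus strand), an intracellular immune receptor type, had 30.5, 28.7 and 29.2 CPM at 10% RWC, against 1.67, 1.76 and 1.18 CPM at 70% RWC. For Bhs68_032V1.1 the log2 fold change was 4.25 ± 0.18, edgeR adjusted p = 6.60e-13. A condensin complex subunit 1-like gene (Bhs53_022V1.1), part of the ring that compacts chromosomes, had 43, 44 and 38.6 CPM at 10% RWC, against 3.2, 2.78 and 1.62 CPM at 70% RWC. For Bhs53_022V1.1 the log2 fold change was 4.03 ± 0.18, edgeR adjusted p = 1.87e-12. Every dry library was more than 5 times the highest library at 70% RWC for these genes. Among enzymes, the glycosyltransferase gene UGT90A7 (Bhs1784_046V1.1) had 45.3 ± 3.01 CPM at 10% RWC and 3.04 ± 0.659 CPM at 70% RWC, a cytochrome P450 gene of subfamily 83B (Bhs146_035V1.1) had 38.8 ± 5.23 CPM at 10% RWC and 2.78 ± 0.642 CPM at 70% RWC and another cytochrome P450 monooxygenase gene (Bhs2958_011V1.1) had 66.2 ± 4.03 CPM at 10% RWC and 7.75 ± 1.07 CPM at 70% RWC (log2 fold changes 3.89, 3.79 and 3.09). These types attach sugars to small molecules or oxidise them, and their substrates here are not known. A urease accessory protein gene (Bhs7_161V1.1), of a type that inserts nickel into the enzyme that splits urea, had 128, 117 and 132 CPM at 10% RWC, against 9.46, 9.37 and 10.6 CPM at 70% RWC. For Bhs7_161V1.1 the log2 fold change was 3.68 ± 0.12, edgeR adjusted p = 1.68e-14.

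The others of the 12 largest increases included trihelix and GRAS transcription factor genes. A trihelix transcription factor gene (Bhs334_001V1.1, GT-2-like) had 54.9 ± 5.29 CPM at 10% RWC and 4.62 ± 0.713 CPM at 70% RWC. A salt tolerance-like gene (Bhs146_024V1.1) had 143, 153 and 146 CPM at 10% RWC, against 19.8, 15.5 and 14.9 CPM at 70% RWC. For Bhs146_024V1.1 the log2 fold change was 3.14 ± 0.10, edgeR adjusted p = 1.46e-14. The GRAS4 gene (Bhs158_013V1.1, scaffold 158, positions 105161 to 107017, plus strand), of the plant-specific GRAS regulator family, had 209, 221 and 227 CPM at 10% RWC, against 28.7, 25.8 and 26.4 CPM at 70% RWC. For Bhs158_013V1.1 the log2 fold change was 3.02 ± 0.08, edgeR adjusted p = 1.02e-15. The 70% RWC libraries of the GRAS4 gene were close to the hydrated level of 25.2, 23.4 and 22.1 CPM. An L-type lectin receptor kinase gene (Bhs710_004V1.1) had 21.9 ± 0.953 CPM at 10% RWC and 2.35 ± 0.503 CPM at 70% RWC, a U-box protein 4 gene (Bhs66777_001V1.1) had 31.2 ± 1.42 CPM at 10% RWC and 3.84 ± 0.421 CPM at 70% RWC and a gene matching the Hop-interacting protein THI031 (Bhs3508_014V1.1) had 53.3 ± 3.0 CPM at 10% RWC and 5.67 ± 0.904 CPM at 70% RWC.

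The most abundant late-step transcript of the dry leaf, chosen after its values were seen, came from a gene with no description (Bhs107_024V1.1, 1549.6 ± 95.3 CPM at 10% RWC and 770.4 ± 41.2 CPM at 70% RWC), which was a late-step gene in 8 of 17 other fits. Among described genes a calcium sensor led. The gene matching CML35 (Bhs32_023V1.1, scaffold 32, positions 178684 to 179346, plus strand), a calmodulin-like protein that binds calcium, had 965, 1354 and 1405 CPM at 10% RWC, against 209, 261 and 264 CPM at 70% RWC. For Bhs32_023V1.1 the log2 fold change was 2.34 ± 0.18, edgeR adjusted p = 3.38e-06. Also chosen after their values were seen, a papain-like cysteine protease gene (Bhs3030_012V1.1), of a type that degrades proteins, had 1175 ± 28.5 CPM at 10% RWC and 359.8 ± 7.51 CPM at 70% RWC, and a gene of the U4/U6.U5 tri-snRNP (Bhs211_076V1.1), the core of the spliceosome, had 729 ± 43.4 CPM at 10% RWC and 158 ± 3.73 CPM at 70% RWC. The splicing factor gene SLU7-A-like (Bhs3883_013V1.1), whose protein acts in the second step of splicing, had 591, 484 and 522 CPM at 10% RWC, against 125, 113 and 107 CPM at 70% RWC. For Bhs3883_013V1.1 the log2 fold change was 2.21 ± 0.14, edgeR adjusted p = 3.74e-08. The gene for translation initiation factor 5B (Bhs2205_001V1.1), which joins the ribosomal subunits at the start codon, had 673, 562 and 606 CPM at 10% RWC, against 234, 226 and 224 CPM at 70% RWC. For Bhs2205_001V1.1 the log2 fold change was 1.43 ± 0.09, edgeR adjusted p = 1.51e-10. A calcium-dependent protein kinase 6 gene (Bhs172_011V1.1) had 575 ± 23.4 CPM at 10% RWC and 255 ± 9.41 CPM at 70% RWC. A gene for a coreceptor kinase of brassinosteroid and immune receptors, BAK1 (Bhs837_001V1.1), had 316, 301 and 309 CPM at 10% RWC, against 80.7, 74.8 and 76 CPM at 70% RWC. For Bhs837_001V1.1 the log2 fold change was 1.998 ± 0.08, edgeR adjusted p = 2.36e-13. Hydrated leaves had 86.2, 69.96 and 69.4 CPM of BAK1, near the level at 70% RWC.

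Late-step genes with no informative description numbered 336 of the 777 higher and 190 of the 508 lower. Chosen after their values were seen, the largest changes among them with at least 20 CPM were Bhs7026_002V1.1 (22.3 ± 1.98 CPM at 10% RWC and 0.721 ± 0.146 CPM at 70% RWC) and Bhs2132_005V1.1 (23.4 ± 2.37 CPM at 10% RWC and 1.06 ± 0.107 CPM at 70% RWC) on the higher side. On the lower side they were Bhs15038_001V1.1 (1.54 ± 0.405 CPM at 10% RWC and 96.8 ± 19.6 CPM at 70% RWC) and Bhs4205_001V1.1 (6.08 ± 0.313 CPM at 10% RWC and 261 ± 36.9 CPM at 70% RWC). Their hydrated levels were within the limits that the rule sets.

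Splicing factors, RNA-binding proteins and helicases, as listed by words in the descriptions, were more often higher than lower in the late step. Members named below beyond the 2 most abundant late-step genes of a list were chosen after their values were seen. The counts of this and every later list stand beside 37.1% higher and 39.6% lower over all genes tested. Late-step genes made up 5.33% (higher) and 3.48% (lower) of all genes tested. Of 70 tested splicing factors, 49 were higher and 9 lower at 10% RWC, with a median log2 fold change of 0.54 at the late step and 0.05 at the early step, beside -0.05 and -0.01 over all genes. They held 7 late-step genes higher and 0 lower. Beside SLU7 these were a CWC22 homolog (Bhs3458_013V1.1, 226 ± 18 CPM at 10% RWC and 86.4 ± 5.44 CPM at 70% RWC), which helps place the exon junction complex, a U4/U6 small nuclear ribonucleoprotein gene (Bhs152_006V1.1), SmD2 (Bhs422_015V1.1), a serine/arginine-rich factor 7 gene (Bhs4_072V1.1, in 6 of 17 other fits), Bhs2680_002V1.1 and Bhs3167_004V1.1. The log2 fold changes of the 7 genes were 1.08 to 2.21, and the other fits gave 5 to 12 higher late-step splicing genes and 0 lower. RNA-binding proteins and helicases had 58 higher and 13 lower of 88, with 11 late-step genes higher and 2 lower. The deposited gene ontology (GO) term RNA binding did not share this majority, with 24 higher and 32 lower of 81 and 6 and 4 late-step genes. RNA-binding protein 25 (Bhs13_123V1.1) had 281, 273 and 265 CPM at 10% RWC, against 111, 108 and 106 CPM at 70% RWC (log2 fold change 1.33 ± 0.07, edgeR adjusted p = 8.66e-12), and a putative RNA-binding protein gene (Bhs13_080V1.1) had 294 ± 21.6 CPM at 10% RWC and 143 ± 5.58 CPM at 70% RWC. Both genes matching Musashi, a regulator of translation in animals, rose alike (Bhs6_030V1.1, 136 ± 10.3 CPM at 10% RWC against 47.9 ± 2.41 CPM at 70% RWC, and Bhs700_012V1.1, 132 ± 7.03 CPM at 10% RWC against 46.2 ± 4.98 CPM at 70% RWC), the second as a late-step gene in 10 of 17 other fits. The 2 lower late-step genes were helicases, DEAD-box helicase 41 (Bhs1022_031V1.1, log2 fold change -1.02) and SDE3 (Bhs3_005V1.1, -2.39, in 10 of 17 other fits), which acts in RNA silencing in Arabidopsis.

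Genes of mRNA decay had 25 higher and 7 lower of 41, with a median log2 fold change of 0.44 at the late step and 0.02 at the early step. The late-step members were 5 higher and 1 lower. Regulator of nonsense transcripts 2 (Bhs394_023V1.1), a core factor of nonsense-mediated decay, had 219, 218 and 227 CPM at 10% RWC, against 85, 93.1 and 91.9 CPM at 70% RWC. For Bhs394_023V1.1 the log2 fold change was 1.298 ± 0.06, edgeR adjusted p = 3.29e-12. A CCR4-associated factor 1 gene (Bhs524_011V1.1), a deadenylase that shortens poly(A) tails, had 108 ± 2.61 CPM at 10% RWC and 49.97 ± 0.75 CPM at 70% RWC, and a CCR4-NOT complex subunit gene (Bhs18_052V1.1) had 62.5 ± 1.51 CPM at 10% RWC and 18.2 ± 2.27 CPM at 70% RWC. The exosome subunit RRP42 (Bhs1836_006V1.1, log2 fold change 1.07) and an exoribonuclease II gene (Bhs451_077V1.1, 1.22) were higher too. The lower member was matched to nonsense-mediated mRNA decay protein 3 (Bhs257_042V1.1, log2 fold change -2.32), a name given to an export adaptor of the large ribosomal subunit.

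The lists of transcription and of chromatin modifiers also had more members higher than lower, while the GO term chromatin had 11 higher and 18 lower of 36. RNA polymerase subunits and elongation factors had 39 higher and 16 lower of 74 and 8 late-step genes higher. Mediator subunit 25 (Bhs5929_003V1.1), a bridge between transcription factors and RNA polymerase II, had 240.5, 349 and 321 CPM at 10% RWC, against 95.8, 144 and 137 CPM at 70% RWC. For Bhs5929_003V1.1 the log2 fold change was 1.27 ± 0.18, edgeR adjusted p = 2.27e-04. Subunits of the PAF1 elongation complex, RTF1 (Bhs11824_002V1.1) and LEO1 (Bhs40_023V1.1), had 143 ± 11.2 CPM at 10% RWC against 62.7 ± 6.74 CPM at 70% RWC and 74.4 ± 7.05 CPM at 10% RWC against 10.2 ± 0.421 CPM at 70% RWC. The lower late-step member, a GLD2-like poly(A) polymerase gene (Bhs1968_003V1.1, log2 fold change -1.54), adds poly(A) tails. Chromatin modifiers and remodellers had 44 higher and 20 lower of 80, with 6 late-step genes higher and 0 lower. The histone acetyltransferase gene HAC1-like (Bhs348_015V1.1) had 327, 327 and 320.1 CPM at 10% RWC, against 110.0, 113 and 121 CPM at 70% RWC (log2 fold change 1.503 ± 0.06, edgeR adjusted p = 4.18e-13), and the ASH2 subunit of a histone methyltransferase complex (Bhs2823_002V1.1) had 89.5 ± 7.95 CPM at 10% RWC and 37.2 ± 6.38 CPM at 70% RWC. The other 4 were the condensin subunit, SWI3D (Bhs3317_007V1.1, log2 fold change 1.37) and histone deacetylase genes Bhs4548_003V1.1 and Bhs4569_004V1.1 (2.08 and 2.08), the first in 7 of 17 other fits.

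Histone genes were mostly lower, yet their late-step members were higher. Of 32 tested histone genes, 6 were higher and 20 lower, with a median log2 fold change of -1.22 at the late step and -0.44 at the early step, while 4 late-step genes rose and 0 fell. A histone H3 gene (Bhs795_013V1.1) had 62.5, 70.7 and 72.7 CPM at 10% RWC, against 11.1, 13.2 and 10.8 CPM at 70% RWC. For Bhs795_013V1.1 the log2 fold change was 2.55 ± 0.11, edgeR adjusted p = 1.04e-12. A histone H2A gene (Bhs4_030V1.1) had 19.3 ± 2.68 CPM at 10% RWC and 6.37 ± 0.876 CPM at 70% RWC, and H4-like genes Bhs51_108V1.1 and Bhs389_014V1.1 had log2 fold changes of 1.02 and 1.096, the second as a late-step gene in 3 of 17 other fits. Dividing-cell markers summed to 47.1 to 64.8 CPM at 10% RWC, against 52.6 to 69.1 CPM at 70% RWC. Most of these markers are histone H4-like genes, Bhs51_108V1.1 and Bhs389_014V1.1 among them, so the sum is not separate from the histone counts. The part of dividing cells in the result was not tested, and 0 of the 9 marker genes were without reads at 10% RWC. The list of cell cycle and DNA replication had 18 higher and 13 lower of 46, and its late-step genes, cyclin-dependent kinase F-1 (Bhs32_155V1.1, 162 ± 2.32 CPM at 10% RWC and 54.8 ± 3.44 CPM at 70% RWC) and a DNA polymerase zeta subunit (Bhs4335_003V1.1, 55.6 ± 3.46 CPM at 10% RWC and 14 ± 2.16 CPM at 70% RWC), which copies past damaged bases, were higher.

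The list of DNA repair had the largest share of late-step genes among lists of at least 40 genes, with 8 of 41 higher and 1 lower. The GO term DNA repair held fewer, 2 higher and 1 lower of 41 (4.88% higher, beside 4.55% of all tested genes with a term), and 22 of its genes were higher and 15 lower. Of the list, 23 members were higher and 10 lower, with a median log2 fold change of 0.42 at the late step and -0.01 at the early step. An alkylated DNA repair protein gene (Bhs103_039V1.1), named for enzymes that strip methyl groups from damaged bases, had 159, 146 and 134 CPM at 10% RWC, against 28.1, 22.8 and 22.8 CPM at 70% RWC. For Bhs103_039V1.1 the log2 fold change was 2.57 ± 0.09, edgeR adjusted p = 8.16e-14. The mismatch repair gene MSH6-1-like (Bhs40032_001V1.1) had 36.8 ± 1.86 CPM at 10% RWC and 6.31 ± 1.51 CPM at 70% RWC, and PMS2-like (Bhs62_038V1.1) had 78.5 ± 3.7 CPM at 10% RWC and 34.9 ± 4.75 CPM at 70% RWC. Excision repair was represented by UVH1 (Bhs3275_004V1.1, 105 ± 5.13 CPM at 10% RWC against 33.6 ± 2.9 CPM at 70% RWC), RAD16 (Bhs312_005V1.1, 84.8 ± 6.81 CPM at 10% RWC against 36.4 ± 3.5 CPM at 70% RWC) and RAD23 (Bhs6137_003V1.1, 152 ± 9.49 CPM at 10% RWC against 69.2 ± 3.53 CPM at 70% RWC), and recombination by a mitochondrial recA homolog (Bhs1054_011V1.1, log2 fold change 1.82) and Bhs2061_001V1.1 (2.62). The RadA homolog (Bhs1167_033V1.1), also a recombination protein, was the lower member (log2 fold change -1.26). Across the other fits 7 to 9 higher and 1 to 2 lower late-step genes were found in this list.

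Genes described as parts of transposable elements, a list added after the late-step counts were seen, were higher for 62 and lower for 11 of 112 tested, with a median log2 fold change of 0.75 at the late step and 0.19 at the early step. They held 14 late-step genes higher and 4 lower. Of 474 such genes with reads, only these 112 passed the filter on low counts. That filter can admit a gene through the 1 state where it is high, so the split describes the tested genes and not the family. A Pol polyprotein gene of the TNT 1-94 type (Bhs2840_007V1.1) had 82.8, 73.5 and 77 CPM at 10% RWC, against 16.8, 18.3 and 17.5 CPM at 70% RWC (log2 fold change 2.15 ± 0.10, edgeR adjusted p = 1.35e-12), and a Gag-pol gene (Bhs313_010V1.1) had 24.9 ± 0.78 CPM at 10% RWC and 10.7 ± 0.881 CPM at 70% RWC. Most members were low, and 9 of the 14 were reverse transcriptase matches. Of the 4 lower late-step genes 3 were transposases. Counts of such repeated sequences are uncertain with unique alignment, and the number called was 40 to 91 higher and 6 to 14 lower over the other fits, which include other filters on low counts.

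Translation moved in both directions. Translation factors had 49 higher and 16 lower of 79 (a median log2 fold change of 0.48 at the late step and 0.13 at the early step), with initiation factors 5B and 3A (Bhs1552_001V1.1, 134 ± 9.78 CPM at 10% RWC and 62.9 ± 3.43 CPM at 70% RWC) as their higher late-step genes. The list also held 2 lower late-step genes, among them initiation factor 3 subunit K (Bhs176_041V1.1, log2 fold change -1.06). Of 140 genes for cytosolic ribosomal proteins, 25 were higher and 77 lower, with 1 late-step gene higher and 6 lower. The GO term ribosome, which takes in other genes, had 15 higher and 30 lower of 54, with 4 and 1 late-step genes. The L23A gene (Bhs95_025V1.1) had 60.5, 73.1 and 56.5 CPM at 10% RWC, against 157, 164 and 159 CPM at 70% RWC. For Bhs95_025V1.1 the log2 fold change was -1.34 ± 0.08, edgeR adjusted p = 8.83e-11. Against the other members, an L7a gene (Bhs269_015V1.1) had 181, 168 and 179 CPM at 10% RWC, against 27.8, 28.7 and 32.3 CPM at 70% RWC. For Bhs269_015V1.1 the log2 fold change was 2.57 ± 0.08, edgeR adjusted p = 1.19e-14. Of 37 genes for organelle ribosomal proteins, 14 were higher and 14 lower, with S5 (Bhs8868_003V1.1, 62.2 ± 4.2 CPM at 10% RWC and 24.8 ± 2.48 CPM at 70% RWC) and mitochondrial L24 (Bhs1938_019V1.1, 34.1 ± 3.82 CPM at 10% RWC and 10.04 ± 2.81 CPM at 70% RWC) among 4 late-step genes higher and 2 lower. Transfer RNA synthetases had 23 higher and 9 lower of 40. Their late-step genes went opposite ways, with isoleucyl-tRNA synthetase (Bhs13_065V1.1) at 199.9 ± 12.7 CPM at 10% RWC and 75.6 ± 5.39 CPM at 70% RWC and the phenylalanyl-tRNA synthetase alpha chain (Bhs98_010V1.1) at 18.1 ± 3.21 CPM at 10% RWC and 82.8 ± 13.4 CPM at 70% RWC. Pentatricopeptide repeat proteins, which edit and process organelle RNA, were split. Of 239 genes, 80 were higher and 82 lower (33.5% and 34.3%), with 15 and 14 late-step genes (6.28% and 5.86%). Bhs2070_004V1.1 (158 ± 3.98 CPM at 10% RWC and 52.8 ± 2.47 CPM at 70% RWC) and Bhs1608_011V1.1 (143 ± 13.5 CPM at 10% RWC and 63 ± 4.63 CPM at 70% RWC) were the most abundant of these.

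In protein turnover, F-box proteins, which choose targets for ubiquitin ligases, had 53 higher and 22 lower of 94, with 9 late-step genes higher and 0 lower. A tubby-like F-box 7 gene (Bhs146_012V1.1) had 239.7, 261 and 249.8 CPM at 10% RWC, against 80.7, 78.9 and 83.2 CPM at 70% RWC (log2 fold change 1.63 ± 0.06, edgeR adjusted p = 1.81e-13), and Bhs198_029V1.1 had 177 ± 14.5 CPM at 10% RWC and 48.3 ± 3.65 CPM at 70% RWC. The log2 fold changes of the 9 genes were 1.11 (Bhs5497_007V1.1) to 2.25 (Bhs887_001V1.1), and the other fits gave 6 to 11 higher and 0 to 1 lower. Ubiquitin ligases were near the shares of all genes, with 59 higher and 59 lower of 149 (39.6% each). Their 7 higher and 5 lower late-step genes (4.70% and 3.36%) included Bhs7925_002V1.1 (159 ± 5.93 CPM at 10% RWC and 59 ± 6.43 CPM at 70% RWC) and Bhs1938_013V1.1 (73.6 ± 1.55 CPM at 10% RWC and 35.7 ± 4.89 CPM at 70% RWC). The proteasome (15 higher and 14 lower of 43) and autophagy (5 and 0 of 7) held no late-step gene. Proteasome subunit T5 (Bhs2_103V1.1) had 411 ± 3.21 CPM at 10% RWC and 156 ± 2.94 CPM at 70% RWC and ATG9 (Bhs12_112V1.1), a membrane protein of autophagy, had 275 ± 7.33 CPM at 10% RWC and 90.6 ± 1.5 CPM at 70% RWC. Both had already been called higher in the early step, with early log2 fold changes of 0.79 and 1.02. A late-step gene outside these lists, the SUMO ligase SIZ1-like (Bhs189_023V1.1), had 142 ± 6.38 CPM at 10% RWC and 65.1 ± 1.63 CPM at 70% RWC.

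Of 79 genes for large heat shock proteins and chaperones, 27 were higher (34.2%) and 40 lower (50.6%), beside 37.1% and 39.6% of all genes. The late-step genes were 5 higher (6.33%) and 1 lower (1.27%), beside 5.33% and 3.48% of all genes. They included DnaJ cochaperone genes Bhs1716_020V1.1 (122 ± 9.7 CPM at 10% RWC and 40.5 ± 4.99 CPM at 70% RWC) and Bhs103_012V1.1 (23.4 ± 2.05 CPM at 10% RWC and 11.6 ± 0.794 CPM at 70% RWC), of which the second was a late-step gene in 9 of 17 other fits.

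**Figure D3:**
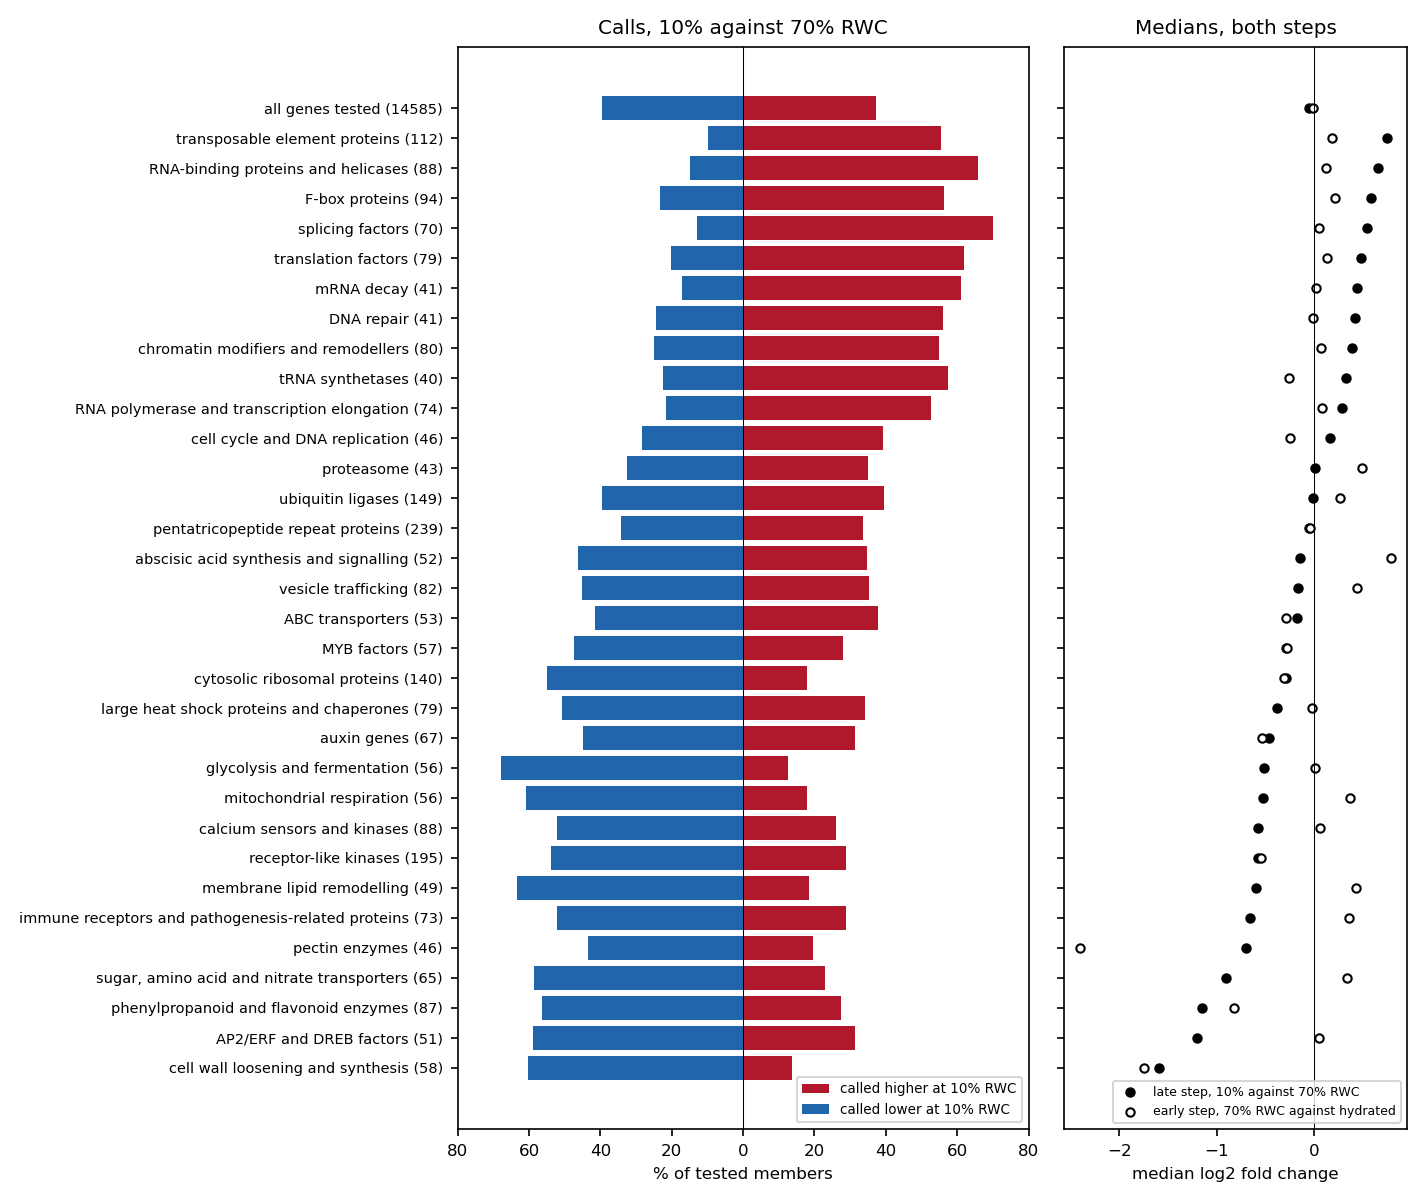
For each gene list with at least 40 tested members (number in brackets) and for all genes, the left panel shows the percentage of members called higher (red, to the right) and lower (blue, to the left) at 10% against 70% RWC, and the right panel the median log2 fold change of the late step (filled) and the early step (open). Lists are ordered by late median, with transposable element proteins, RNA-binding proteins (65.9% higher), F-box proteins and splicing factors (70% higher) at the top and cell wall genes at the bottom, with medians of -1.60 in the late and -1.75 in the early step.

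Receptors and immune genes fell more often than they rose. Receptor-like kinases had 56 higher and 105 lower of 195, and 10 higher and 11 lower late-step genes. Beside BAK1, the receptor-like kinase Bhs10_102V1.1 had 218 ± 4.36 CPM at 10% RWC and 87.3 ± 5.03 CPM at 70% RWC. Immune receptors and pathogenesis-related proteins had 21 higher and 38 lower of 73, with 3 and 7 late-step genes. The abundant member, matched to RPM1 (Bhs3323_003V1.1), which guards a host protein attacked by bacteria in Arabidopsis, had 392, 417 and 397 CPM at 10% RWC, against 121, 121 and 126 CPM at 70% RWC. For Bhs3323_003V1.1 the log2 fold change was 1.71 ± 0.06, edgeR adjusted p = 7.66e-14. Another RPM1 match (Bhs198_037V1.1) had 12.5, 9.96 and 10.5 CPM at 10% RWC, against 30.3, 30.9 and 30.9 CPM at 70% RWC (log2 fold change -1.48). The same best match thus stood on genes that moved in opposite directions. The other 6 lower genes were less abundant, with log2 fold changes of -2.03 (Bhs1716_013V1.1) to -3.54 (Bhs704_018V1.1).

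Calcium sensors and kinases had 23 higher and 46 lower of 88, against which CML35 and CML48 (Bhs3741_010V1.1, 61.3 ± 3.15 CPM at 10% RWC and 22.2 ± 3.72 CPM at 70% RWC) rose as late-step genes. In all, that list held 3 higher and 2 lower late-step genes. Abscisic acid, the hormone of drought, had 18 genes higher and 24 lower of 52. In the early step 31 had been called higher and 13 lower. A receptor gene of the PYR/PYL family (Bhs45_144V1.1), which senses the hormone, had 4.66, 7.01 and 6.62 CPM at 10% RWC, against 56.3, 51.2 and 63 CPM at 70% RWC (log2 fold change -3.22 ± 0.14, edgeR adjusted p = 1.13e-12), and a protein phosphatase 2C gene (Bhs1_132V1.1), of the family that holds the pathway's inhibitors, had 81.2, 96.8 and 86.5 CPM at 10% RWC, against 33.7, 39.96 and 33.4 CPM at 70% RWC. For Bhs1_132V1.1 the log2 fold change was 1.304 ± 0.09, edgeR adjusted p = 7.41e-10. The list takes in genes described only as protein phosphatase 2C, and whether Bhs1_132V1.1, matched to 2C 55, acts in this pathway is not known. Auxin genes had 21 higher and 30 lower of 67, with late-step genes 5NG4 (Bhs212_014V1.1, 41.8 ± 1.81 CPM at 10% RWC and 16.1 ± 0.859 CPM at 70% RWC) and the repressor IAA27-like (Bhs151_003V1.1, 2.51 ± 0.635 CPM at 10% RWC and 5.42 ± 1.0 CPM at 70% RWC). The other lower late-step gene was a low auxin efflux carrier gene (Bhs1234_001V1.1, means of 0.0901 CPM at 10% RWC and 1.49 CPM at 70% RWC). Synthesis of jasmonate and ethylene had 5 higher and 10 lower of 15, and its late-step gene was matched to ACC deaminase (Bhs126_008V1.1, 2.74 ± 1.1 CPM at 10% RWC and 6.32 ± 1.4 CPM at 70% RWC), an enzyme that removes the ethylene precursor.

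Among transcription factors, C2H2 and CCCH zinc finger genes had 14 higher and 7 lower of 29, and all 4 late-step genes were higher CCCH genes, a type that often binds RNA, with Bhs3559_006V1.1 at 108 ± 6.42 CPM at 10% RWC and 35.9 ± 2.81 CPM at 70% RWC and Bhs2726_010V1.1 at 82.2 ± 5.64 CPM at 10% RWC and 34.7 ± 1.63 CPM at 70% RWC. AP2/ERF and DREB factors, which include activators of drought genes, had 16 higher and 30 lower of 51 and 3 and 4 late-step genes. Ethylene response factor 9 (Bhs6670_003V1.1) had 41.4, 61.6 and 56.7 CPM at 10% RWC, against 15.4, 20.6 and 19.9 CPM at 70% RWC (log2 fold change 1.51 ± 0.24, edgeR adjusted p = 2.82e-04), with replicate 1 the lowest in each state. The TEM1-like repressor (Bhs1659_002V1.1), a repressor of flowering in Arabidopsis, had 5.59, 8.13 and 6.75 CPM at 10% RWC, against 40.2, 40.8 and 42.4 CPM at 70% RWC. For Bhs1659_002V1.1 the log2 fold change was -2.59 ± 0.12, edgeR adjusted p = 2.39e-12. Basic helix-loop-helix factors had 8 higher and 20 lower of 37, with lower late-step genes PIF1-like (Bhs6477_001V1.1, 1.21 ± 0.788 CPM at 10% RWC and 13 ± 1.34 CPM at 70% RWC), a light-sensitive repressor of germination, and bHLH13 (Bhs133_041V1.1, 0.549 ± 0.253 CPM at 10% RWC and 4.13 ± 0.513 CPM at 70% RWC). The bZIP factor TGA1 (Bhs3451_006V1.1) had 2.13 ± 0.387 CPM at 10% RWC and 8.97 ± 0.914 CPM at 70% RWC in a list of 18 with 4 higher and 8 lower. A Myb gene (Bhs198_030V1.1) had 3.8 ± 0.758 CPM at 10% RWC and 11.8 ± 0.119 CPM at 70% RWC in a list of 57 with 16 and 27.

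WRKY factors had 14 higher and 17 lower of 38, with WRKY32 (Bhs3785_005V1.1, 20.8 ± 3.19 CPM at 10% RWC and 8.47 ± 1.0 CPM at 70% RWC) as the late-step gene opposite to WRKY30. NAC factors (8 higher and 11 lower of 26) and heat stress factors (6 and 8 of 18) held no late-step gene. A NAC gene (Bhs574_015V1.1) rose in both steps (log2 fold changes 1.28 late and 1.19 early), and the A-6b-like heat stress factor (Bhs3828_002V1.1) fell in the late step after a rise in the early step (-3.03 and 1.48). Of 16 clock and photoreceptor genes, 7 were higher and 7 lower, and cryptochrome DASH (Bhs1182_027V1.1), a blue-light photolyase relative, had 3.86, 3.23 and 4.19 CPM at 10% RWC, against 21.1, 20.9 and 21.1 CPM at 70% RWC. For Bhs1182_027V1.1 the log2 fold change was -2.48 ± 0.16, edgeR adjusted p = 2.34e-10.

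Glycolysis and fermentation had 7 higher and 38 lower of 56, with a median log2 fold change of -0.52 at the late step and 0.01 at the early step. A chloroplast pyruvate kinase gene (Bhs3049_003V1.1), for the last enzyme of glycolysis, had 13.4, 13.3 and 8.51 CPM at 10% RWC, against 65.5, 64.1 and 50.5 CPM at 70% RWC (log2 fold change -2.35 ± 0.15, edgeR adjusted p = 1.63e-09), while a phosphoglycerate mutase gene (Bhs175_009V1.1) had 73.9, 73.2 and 72.5 CPM at 10% RWC, against 23.9, 21.1 and 22.5 CPM at 70% RWC. For Bhs175_009V1.1 the log2 fold change was 1.700 ± 0.10, edgeR adjusted p = 3.00e-11. Mitochondrial respiration had 10 higher and 34 lower of 56, with early calls of 31 higher and 4 lower and a median log2 fold change of -0.53 at the late step and 0.37 at the early step. An NADH-ubiquinone oxidoreductase-like gene (Bhs1022_038V1.1), of complex I, had 9.93 ± 0.868 CPM at 10% RWC and 22.3 ± 1.28 CPM at 70% RWC, and the ATP synthase protein I gene (Bhs2927_003V1.1) had 151, 112 and 115 CPM at 10% RWC, against 77.9, 51.8 and 52.3 CPM at 70% RWC. For Bhs2927_003V1.1 the log2 fold change was 1.05 ± 0.17, edgeR adjusted p = 2.23e-04, and it was a late-step gene in 11 of 17 other fits. It is in this list by its description alone, which does not give the organelle. The mitochondrial malic enzyme gene (Bhs511_013V1.1, 62 kDa isoform), which makes pyruvate from malate, had 85.1, 81.2 and 73.3 CPM at 10% RWC, against 232, 234 and 230.1 CPM at 70% RWC (log2 fold change -1.54 ± 0.07, edgeR adjusted p = 3.68e-12), and it was a late-step gene in 9 of 17 other fits. Starch and trehalose enzymes had 11 higher and 14 lower of 32. All 3 late-step genes were lower enzymes of starch, a starch synthase (Bhs176_031V1.1, 14.8 ± 1.55 CPM at 10% RWC and 36.1 ± 3.14 CPM at 70% RWC), 4-alpha-glucanotransferase (Bhs4129_002V1.1, 7.52 ± 0.687 CPM at 10% RWC and 22.8 ± 1.52 CPM at 70% RWC) and isoamylase (Bhs4966_001V1.1, 7.89 ± 0.422 CPM at 10% RWC and 18.9 ± 1.67 CPM at 70% RWC). Raffinose family and sucrose enzymes had 7 higher and 12 lower of 23, and an alpha-galactosidase gene (Bhs539_034V1.1), whose enzyme breaks raffinose down, had 170.4, 161 and 176 CPM at 10% RWC, against 73.4, 70.7 and 73.3 CPM at 70% RWC. For Bhs539_034V1.1 the log2 fold change was 1.22 ± 0.07, edgeR adjusted p = 1.56e-11.

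Thioredoxins and glutaredoxins, which reduce disulfides, had 4 higher and 17 lower of 31, and their 3 late-step genes were lower glutaredoxins. Bhs32_076V1.1 had 3.2, 3.37 and 2.03 CPM at 10% RWC, against 29.8, 26.1 and 23.3 CPM at 70% RWC. For Bhs32_076V1.1 the log2 fold change was -3.199 ± 0.23, edgeR adjusted p = 6.25e-09. The S2-like gene Bhs5435_006V1.1 had 3 reads over the 10% RWC libraries and 391 over those at 70% RWC, a ratio per depth of 0.00724 with an exact 95% counting interval of 0.00149 to 0.0213. The third gene, Bhs2668_009V1.1, had 0.728 ± 0.0987 CPM at 10% RWC and 7.9 ± 0.94 CPM at 70% RWC. Glutathione transferases had 2 higher and 9 lower of 16, and neighbouring tau-class genes Bhs1598_021V1.1 (22.4 ± 0.407 CPM at 10% RWC and 68.2 ± 3.85 CPM at 70% RWC) and Bhs1598_022V1.1 (13.3 ± 1.16 CPM at 10% RWC and 45.2 ± 2.35 CPM at 70% RWC) fell together. The higher late-step gene of that list, Bhs1067_010V1.1, had a log2 fold change of 1.32. Antioxidant enzymes had 5 higher and 16 lower of 34. Their late-step genes were a monodehydroascorbate reductase (Bhs334_020V1.1), which regenerates ascorbate, at 137, 136 and 129 CPM at 10% RWC, against 51.6, 58.8 and 49.2 CPM at 70% RWC (log2 fold change 1.33 ± 0.08, edgeR adjusted p = 3.65e-11), and a bifunctional monodehydroascorbate reductase and carbonic anhydrase (Bhs2372_006V1.1) at 1.18 ± 0.558 CPM at 10% RWC and 5.46 ± 2.31 CPM at 70% RWC.

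Sugar, amino acid and nitrate transporters had 15 higher and 38 lower of 65, with a median log2 fold change of -0.91 at the late step and 0.33 at the early step. Their late-step genes were nitrate transporters 1.2-like (Bhs671_013V1.1, 5.99 ± 0.115 CPM at 10% RWC and 22.1 ± 1.47 CPM at 70% RWC) and 1.4-like (Bhs32_127V1.1, 0.277 ± 0.281 CPM at 10% RWC and 15.6 ± 0.415 CPM at 70% RWC). Ion pumps and channels had 5 higher and 20 lower of 34. A plasma-membrane calcium ATPase gene (Bhs24_013V1.1), whose pump removes calcium from the cytosol, had 2.0, 2.52 and 2.03 CPM at 10% RWC, against 18.5, 19.8 and 20.8 CPM at 70% RWC (log2 fold change -3.16 ± 0.16, edgeR adjusted p = 7.22e-12), and an outward-rectifying potassium channel gene (Bhs564_028V1.1), which lets potassium out of cells, had 35, 34.2 and 36.6 CPM at 10% RWC, against 14.2, 14.1 and 13.1 CPM at 70% RWC. For Bhs564_028V1.1 the log2 fold change was 1.35 ± 0.11, edgeR adjusted p = 4.52e-09. ABC transporters were 20 higher and 22 lower of 53 (37.7% and 41.5%, near the shares of all genes), with higher late-step genes Bhs451_028V1.1 (7.82 ± 0.915 CPM at 10% RWC and 0.338 ± 0.372 CPM at 70% RWC) and Bhs2165_005V1.1 (12.5 ± 0.977 CPM at 10% RWC and 3.65 ± 0.139 CPM at 70% RWC). They also held 1 lower late-step gene. Vesicle trafficking had 29 higher and 37 lower of 82 (35.4% and 45.1%), and the coatomer alpha-1 gene (Bhs649_004V1.1), for a coat of vesicles that return to the endoplasmic reticulum, had 37 ± 1.42 CPM at 10% RWC and 97.7 ± 4.04 CPM at 70% RWC. Aquaporins had 5 higher and 5 lower of 11 and no late-step gene, and a PIP aquaporin (Bhs3276_001V1.1) had 134 ± 18 CPM at 10% RWC and 469 ± 44.4 CPM at 70% RWC.

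Membrane lipid remodelling had 9 higher and 31 lower of 49, with a median log2 fold change of -0.60 at the late step and 0.43 at the early step. Its late-step genes were low, a phospholipase C gene (Bhs1728_006V1.1, 2.14 ± 0.577 CPM at 10% RWC and 5.47 ± 0.558 CPM at 70% RWC), which was one in 6 of 17 other fits, and a phospholipase A1 gene (Bhs257_043V1.1) with 2 reads over the 10% RWC libraries and 119 over those at 70% RWC, a ratio per depth of 0.0159 (95% counting interval 0.0019 to 0.0586). Of 87 genes for phenylpropanoid and flavonoid enzymes, 24 were higher and 49 lower, and the late-step genes were 1 higher and 5 lower. A cinnamoyl-CoA reductase gene (Bhs9172_002V1.1), of the branch to lignin, had 111, 103 and 96.3 CPM at 10% RWC, against 37, 30.7 and 27.1 CPM at 70% RWC. For Bhs9172_002V1.1 the log2 fold change was 1.71 ± 0.12, edgeR adjusted p = 1.07e-09. Dihydroflavonol reductase (Bhs649_048V1.1), of the branch to anthocyanins, had 12.1 ± 2.02 CPM at 10% RWC and 30.4 ± 1.53 CPM at 70% RWC, and 4-coumarate:CoA ligase (Bhs32_080V1.1), which feeds both branches, had 2.83 ± 0.958 CPM at 10% RWC and 29.7 ± 5.45 CPM at 70% RWC. They were late-step genes in 11 of 17 other fits and 10 of 17 other fits. Cell wall loosening and synthesis, to which the xyloglucan, fasciclin and extensin genes belong, had 8 higher and 35 lower of 58, and 6 and 40 in the early step. Its higher late-step gene was a cellulose synthase A 8 gene (Bhs11028_001V1.1, 26.3 ± 3.14 CPM at 10% RWC and 8.65 ± 0.152 CPM at 70% RWC), for the secondary wall. Of 21 genes for actin and tubulin, 3 were higher and 13 lower, with beta-tubulin 14 (Bhs4377_012V1.1, 17.1 ± 0.438 CPM at 10% RWC and 6.5 ± 0.751 CPM at 70% RWC) as a higher late-step gene.

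The lists of LEA and dehydrin proteins, early light-induced proteins, photosystems and light harvesting, and the Calvin cycle held no late-step gene. Most of their members had been called in the early step. The rule bars such genes, so this absence follows largely from the rule. LEA and dehydrin proteins, which protect proteins and membranes during drying, had 2 higher and 15 lower of 20 in the late step, and 20 higher and 0 lower in the early step (a median log2 fold change of -1.23 at the late step and 7.03 at the early step). The LEA gene Bhs267_026V1.1 had 3470.2, 3623 and 3575 CPM at 10% RWC, against 8530.0, 9287 and 9146 CPM at 70% RWC (log2 fold change -1.34 ± 0.15, edgeR adjusted p = 9.47e-06), and hydrated leaves had 14, 8.37 and 5.74 CPM. Early light-induced proteins, which bind chlorophyll under stress, went on rising, with 9 higher and 2 lower of 11. Bhs474_011V1.1 had 3162, 3329 and 3241 CPM at 10% RWC, against 361, 348 and 363 CPM at 70% RWC. For Bhs474_011V1.1 the log2 fold change was 3.18 ± 0.12, edgeR adjusted p = 1.41e-11. Photosystem and light-harvesting genes had 3 higher and 22 lower of 30, and 1 and 27 in the early step, and the Calvin cycle 3 and 10 of 14. Lhcb1 (Bhs8864_002V1.1), an antenna protein, fell by the same amount in both steps, with log2 fold changes of -1.37 late and -1.37 early, and the Rubisco small subunit gene (Bhs5191_005V1.1) had -3.25 and -3.12.

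Late calls in the remaining lists without a late-step gene were as follows. Chlorophyll synthesis had 6 higher and 4 lower of 13 (chlorophyll synthase Bhs3174_009V1.1, 65.5 ± 4.96 CPM at 10% RWC and 162 ± 11.2 CPM at 70% RWC). Chlorophyll breakdown and senescence had 2 and 6 of 11 (DIN1-like Bhs11213_001V1.1, 11.1 ± 0.57 CPM at 10% RWC and 47.6 ± 4.55 CPM at 70% RWC), and small heat shock proteins 1 and 4 of 6 (Bhs305_013V1.1, 57.5 ± 4.1 CPM at 10% RWC and 146 ± 11.6 CPM at 70% RWC). Pectin enzymes had 9 and 20 of 46, and a polygalacturonase-like gene (Bhs45_118V1.1) that had fallen in the early step rose in the late step (log2 fold changes 2.59 late and -1.25 early). Cuticle and wax genes had 4 and 5 of 12, and 3-ketoacyl-CoA synthase 11 (Bhs4383_003V1.1) fell in both steps (-2.52 and -0.93).

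GO terms in the deposited annotation were read in the same way, as counts without a test. Of 10045 tested genes with a term, 4.55% were late-step genes higher and 3.49% lower, and 500 terms held 10 to 500 tested genes. Transcription, DNA-dependent, had 27 late-step genes higher and 8 lower of 328 (8.23% and 2.44%), among them the CDC5-like gene (Bhs33_013V1.1, 307 ± 5.03 CPM at 10% RWC and 144 ± 9.34 CPM at 70% RWC), a spliceosome-associated Myb-type protein. Flower development had 9 higher and 0 lower of 74, and the SUMO ligase gene SIZ1 carries that term. Hormone-mediated signalling had 9 and 2 of 97, including calcium-dependent protein kinase 6. Multicellular organismal development had 7 and 1 of 70, with Bhs29_039V1.1 (46.6 ± 2.0 CPM at 10% RWC and 22.1 ± 1.37 CPM at 70% RWC). Chromatin had 5 late-step genes higher and 0 lower of 36, although its median log2 fold change at the late step was -0.67. The LHP1 gene (Bhs40_112V1.1, 92.4 ± 11.7 CPM at 10% RWC and 45.9 ± 1.34 CPM at 70% RWC), a reader of repressive histone marks, was a late-step gene in 10 of 17 other fits. Regulation of cellular process had 5 on each side of 39, with Bhs394_009V1.1 (147 ± 7.58 CPM at 10% RWC and 73 ± 4.88 CPM at 70% RWC, in 10 of 17 other fits) and Bhs1611_002V1.1 (2.32 ± 0.529 CPM at 10% RWC and 5.07 ± 1.19 CPM at 70% RWC). A pair of the 8 terms taken for higher genes has no name in the files, and their most abundant members were Bhs7890_002V1.1 (361 ± 9.94 CPM at 10% RWC and 149.8 ± 9.45 CPM at 70% RWC) and Bhs284_015V1.1 (35.8 ± 1.29 CPM at 10% RWC and 16.7 ± 1.87 CPM at 70% RWC).

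On the lower side, the mitochondrial respiratory chain had 0 late-step genes higher and 6 lower of 36 (16.7% lower), the highest share of any term taken, and the most abundant member not named above has no description (Bhs1034_014V1.1, 16.1 ± 1.7 CPM at 10% RWC and 34 ± 1.57 CPM at 70% RWC). The list of mitochondrial respiration did not share this, with 1 late-step gene higher and 1 lower of 56 (1.79% each). Carboxy-lyase activity had 2 higher and 5 lower of 32, with the malic enzyme. Secondary active transmembrane transport had 1 and 5 of 41, with a glucose 6-phosphate translocator of the plastid (Bhs3405_003V1.1, 28 ± 2.55 CPM at 10% RWC and 60.4 ± 1.48 CPM at 70% RWC). Metal ion transport had 1 and 5 of 45, with a potassium efflux antiporter (Bhs208_010V1.1, 7.11 ± 1.74 CPM at 10% RWC and 22.9 ± 1.23 CPM at 70% RWC). Oxidoreductases of CH-OH groups had 1 and 6 of 82, with 3-hydroxy-3-methylglutaryl-CoA reductase (Bhs730_031V1.1), the entry enzyme of isoprenoid synthesis in the cytosol, at 13.2, 13.2 and 13.5 CPM at 10% RWC, against 44.2, 49.3 and 55.1 CPM at 70% RWC. For Bhs730_031V1.1 the log2 fold change was -1.896 ± 0.11, edgeR adjusted p = 2.61e-11. Cellular metabolic process (3 and 6 of 68) held a type-B response regulator of cytokinin signalling (Bhs8158_003V1.1, 13.4 ± 1.79 CPM at 10% RWC and 30.4 ± 2.85 CPM at 70% RWC), and organ development (3 and 5 of 58) a calcium ATPase of the endoplasmic reticulum (Bhs11_031V1.1, 8.85 ± 0.402 CPM at 10% RWC and 27.3 ± 1.8 CPM at 70% RWC).

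In the leaf's transcript pool, the 777 higher late-step genes held 6.41 ± 0.0908% of the CPM of all tested genes at 10% RWC and 2.02 ± 0.0417% at 70% RWC (SD, n = 3 each). Hydrated leaves had 2.16 ± 0.0997%. The 508 lower genes held 0.563 ± 0.00484% at 10% RWC and 2.19 ± 0.0930% at 70% RWC, beside 2.32 ± 0.0522% in hydrated leaves. These shares follow from the rule and are a description.

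**Figure D4:**
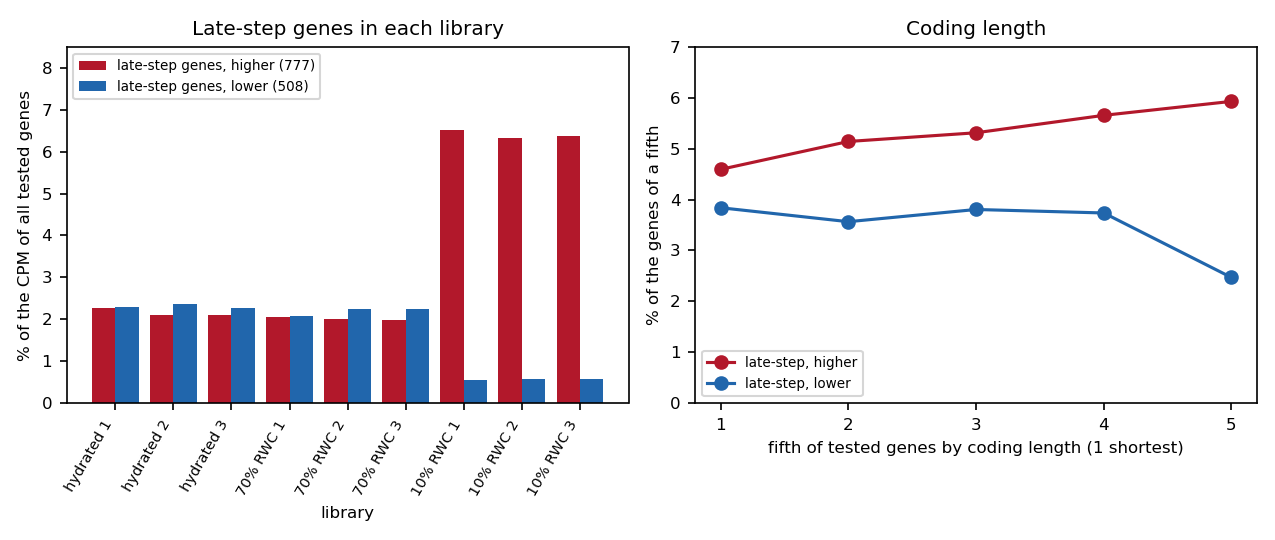
Left, the percentage of the CPM of all tested genes held by the late-step genes higher (red) and lower (blue) at 10% RWC in each library, and right, the percentage of late-step genes in each of 5 equal groups of the tested genes by coding length. The red bars stand above 6.3% in the 10% RWC libraries and near 2% in the others, and the blue line is at 2.47% in the longest group and at 3.57 to 3.84% in the others.

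Coding length was not used by the rule. Late-step genes had a median coding length of 1239 bases when higher and 1092 bases when lower, beside 1170 bases over all tested genes. The share of all genes called higher at 10% RWC was 46.0% in the longest of 5 equal groups of genes by length and 30.3% in the shortest, and late-step genes higher made up 5.93% and 4.59%. The median length was 1064 bases for splicing factors, 1671 for RNA-binding proteins and helicases, 2028 for DNA repair and 501 for cytosolic ribosomal proteins, and the part of length in these lists' counts was not tested. The part of a gene covered by reads had a median of 90.3 to 91.0% of its length in the 10% RWC libraries and 90.3 to 90.9% at 70% RWC.

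Markers of leaf cell types moved as well. Mesophyll markers, from Rubisco, light-harvesting and photosystem genes and including early light-induced proteins, summed to 2841 to 3523 CPM at 10% RWC and 6439 to 8425 CPM at 70% RWC, with 5 higher and 20 lower of 28. Guard cell markers (SLAC1, MYB60 and FAMA) summed to 6.66 to 8.51 CPM at 10% RWC and 14.4 to 15.9 CPM at 70% RWC, with 1 higher and 2 lower. Epidermis and trichome markers summed to 94.3 to 115.6 CPM at 10% RWC and 131 to 141 CPM at 70% RWC. Against that lower sum, 5 of the 11 tested were higher and 4 lower. Phloem markers were at 1859 to 2047 CPM at 10% RWC and 1385 to 1513 CPM at 70% RWC, with 4 higher and 1 lower of 6. Beside sucrose transporter and phloem protein 2 genes, the phloem list holds F-box protein genes, taken in by a search word in their names. Xylem markers were at 1172 to 1416 CPM at 10% RWC and 462 to 546 CPM at 70% RWC. The xylem sum rose although 2 of the 8 tested were higher and 5 lower, with a median log2 fold change of -1.77. The xylem list held the cellulose synthase A 8 gene, and 4 of its 11 genes had no read at 10% RWC. The part of these markers in the late-step counts was not tested.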

How the data were processed

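Messenger RNA of leaf tissue was sequenced on Illumina libraries, per the labels. The deposited counts are numbers of uniquely aligned reads per gene model, per the file headers, and genes without a read are left out of a file. The percentage of each gene covered by reads is the authors' deposited value, per the file headers. Aligner, genome build and strandedness are not given in the sources used here. A table of the authors' own comparisons was not used. Missing genes were set to 0. Gene models hold coding length.

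Genes were filtered with filterByExpr, scaled by TMM and fitted in edgeR 4.0.16 (R 4.3.3, limma 3.58.1) with robust quasi-likelihood over all 9 libraries, 1 mean per state and no block, and p-values were adjusted by Benjamini-Hochberg over the 14585 genes tested. Called means an adjusted p below 0.05. CPM are scaled with TMM. Log2 fold changes are those of the edgeR fit at its default prior count, and a prior count of 2 was used only for log2 CPM, as in the deviations between replicates. Fits were tested on simulated data. Counting intervals are exact at 95% and cover counting error only. Alternatives were RLE scaling, total counts, no and a stricter filter, DESeq2 1.42.0, a replicate block, libraries left out, and other limits.

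Genes named are the 12 largest described late-step increases and decreases with at least 20 CPM and no overlap of states, the 2 most abundant late-step members of each of 59 lists of words in descriptions (where a list has none, its most abundant called member of at least 2-fold), and the most abundant unnamed late-step member of each of 8 GO terms per direction with at least 5 late-step genes and the highest shares. Members and lists were chosen with earlier results of these data known, and lists were edited after late-step counts were seen.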

Additional observations from a re-analysis of the deposited data

How the results depend on the processing

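Over the 1285 late-step genes and the other fits, the late change kept its direction and call in 22897 of 22904 values, and in the other 7 it kept its direction and lost its call. The 777 higher and 508 lower late-step genes depend on where limits are set. An early change within 1 on the log2 scale, called or not, gave 1708 and 1361. An approximate confidence interval of the early change within 1, built from the approximate SE, gave 1371 and 1045. A late fold of at least 1.5 gave 1171 higher, and a late fold of at least 4 gave 186 and 211. Of the 1285 genes, 547 were late-step genes in all 17 other fits with all states. Leaving out 1 library gave 672 to 832 higher and 497 to 595 lower late-step genes, and 10841 to 11482 genes called. Without 70% RWC replicate 1, the median log2 fold change of all genes was -0.16, against -0.05 with it. Replicate 1 libraries deviated together across states, which the reported fit, having no block, does not model. Deviations of same-numbered libraries, in replicate order, correlated at 0.238, 0.069 and 0.076 between 10% and 70% RWC. Those of hydrated leaves and 70% RWC correlated at 0.293, 0.103 and 0.102. Those of hydrated leaves and 10% RWC correlated at 0.274, 0.129 and 0.078, so that not every pair passed 0.1. Replicate 1 libraries correlated at -0.217 to -0.102 with differently numbered libraries of other states. Among the remaining libraries, differently numbered pairs correlated at 0.048 to 0.141, a range that holds their same-numbered pairs. Not every library correlated best with its own number. A fit with a replicate block called 11728 genes, with 703 higher and 437 lower late-step genes, which held 1100 of the 1285. Named genes left out of them, whose late changes stayed called, include SLU7 (Bhs3883_013V1.1), initiation factor 5B (Bhs2205_001V1.1), the PYR/PYL receptor (Bhs45_144V1.1), pyruvate kinase (Bhs3049_003V1.1) and phosphoglycerate mutase (Bhs175_009V1.1). Of 1062 list medians under alternatives, 51 had the opposite sign, in 12 lists. Genes with few reads set the lower limit: 5 lower late-step genes had no read at 10% RWC.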

Other observations

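Chosen after their values were seen, late-step genes also stood beside each other in the genome. On the lower side, 3 neighbouring genes for major latex-like proteins had 16.2 ± 2.15 CPM at 10% RWC and 140.1 ± 30.7 CPM at 70% RWC (Bhs618_037V1.1), 122 ± 20.9 CPM at 10% RWC and 438 ± 74.1 CPM at 70% RWC (Bhs618_038V1.1) and 164 ± 33.3 CPM at 10% RWC and 405 ± 82.9 CPM at 70% RWC (Bhs618_039V1.1, a late-step gene in 10 of 17 other fits). Adjacent here means next to each other among gene models with a read, so a model without reads can lie between, and gaps reached 97544 bases. Higher late-step genes formed 39 adjacent pairs, 27 of them on the same strand. The same-strand share of all adjacent pairs was not counted. Of 974 tested neighbour positions, where a pair counts from both of its genes, 8.01% were of the same class, beside 5.33% of all tested genes. Lower late-step genes formed 19 pairs, 9 on the same strand, and 6.03% of 630 neighbour positions were of the same class, beside 3.48%. The median gap was 2365 bases in the higher pairs and 5558 bases in the lower pairs. Whether reads were counted by strand is not known, and the part of shared reads between neighbours was not tested.

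Genes outside the lists included a homogentisic acid phytyltransferase gene (Bhs11808_001V1.1), for an enzyme of vitamin E synthesis, with 48.6 ± 3.02 CPM at 10% RWC and 433 ± 41.1 CPM at 70% RWC. A cytoplasmic malate dehydrogenase gene (Bhs8699_001V1.1) had 94.9 ± 2.54 CPM at 10% RWC and 349 ± 21.3 CPM at 70% RWC. An aarF domain-containing kinase gene (Bhs107_022V1.1) had 497 ± 11.2 CPM at 10% RWC and 75.9 ± 3.82 CPM at 70% RWC.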
